A study of Mus musculus with 5 samples.

Results

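The genes described are 9 members of the NRF2 oxidative stress response, measured in cells washed from the peritoneal cavity of mice. They are Nfe2l2, Slc7a11, Gclc, Gclm, Srxn1, Prdx1, Txnrd1, Sod2 and Nqo1, chosen by name and matched to the array through the RefSeq accession of each probe. The matching rule uses no measured value. The match found all 9 genes on 10 probes, with 1 probe per gene except Prdx1, which has 2. They stand among 20121 genes with a value on every array. Nfe2l2 encodes NRF2, a transcription factor that the adaptor KEAP1 normally holds in the cytoplasm and passes to a ubiquitin ligase. Oxidants and electrophiles modify KEAP1, NRF2 then escapes degradation, pairs with a small MAF protein and binds antioxidant response elements (AREs) near genes for glutathione synthesis, thioredoxin recycling and detoxification. NRF2 activity is therefore set largely at the protein level, and the messenger RNA of its targets is the usual readout. In macrophages and neutrophils these genes buffer the oxidants that the cells themselves produce.

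The cells came from female BALB/c mice, and RNA was taken 2 h after a single injection into the peritoneum. The 5 groups received PBS (the vehicle), AEPS at 50 µg (a polysaccharide of Actinidia eriantha roots), OVA at 25 µg (ovalbumin, a model antigen), OVA at 25 µg combined with AEPS at 50 µg, and OVA at 25 µg combined with alum at 200 µg (an aluminium salt adjuvant). Age and the number of mice behind each RNA are not given in the sources used here, and mixed peritoneal cells were not sorted. Each injection has 1 single-colour array, so differences stand without a check between replicates and without p-values. "Higher" and "lower" describe these arrays.

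Levels are log2 of the processed signal minus the log2 75th percentile of the same array, so a level of 0 equals that percentile. The technical SE of a difference comes from the scanner's error model, about 10% of the signal, and leaves out the spread between mice and arrays. Its median was 0.204, and it lay near 0.20 for the members except Nqo1. A gene is counted as higher or lower from 2-fold upwards, provided its probe was well above background on 1 or both of the arrays compared. Per array, 56.8% to 60.0% of probes passed that background flag, and Pearson's r between arrays, taken over genes, was 0.982 to 0.990 (genes are not replicates). All 5 arrays lay on 1 slide. PBS sat alone in row 1 and the other 4 filled row 2, so slide row and the PBS group cannot be told apart. PBS and OVA with alum shared column 4. In a bulk sample, fewer cells of a type and less RNA per cell cannot be told apart.

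Of the 9 members, 8 were well above background on every array, and Nqo1 was so only on the arrays of OVA and of OVA with alum. Of those 8, PBS had the lowest level for Nfe2l2, Txnrd1 and Slc7a11 and the highest for Gclm, Gclc and Srxn1. Nqo1 has no order among the 3 arrays where it was not above background. Among the 15571 genes above background on at least 1 array, PBS was lowest for 19.2% and highest for 37.1%. Levels of 5 members (Nfe2l2, Gclm, Gclc, Txnrd1 and Prdx1) spanned less than 2-fold over the 5 arrays, as did those of 74.1% of the genes above background throughout. For Sod2 and the brighter Prdx1 probe, both PBS and OVA with alum lay below the other 3 arrays, while the dimmer Prdx1 probe was highest after PBS. The order of Sod2 was found for 14.2% of the 15571 genes. For Gclm, Gclc and Srxn1 both PBS and OVA with alum lay above the other 3 arrays, as for 25% of those genes.

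The sequences just upstream of the start are shown for the 3 members that differed at least 2-fold between arrays on which both signals were above background. Each is 150 bases, read 5′ to 3′ on the strand of the gene, from RefSeq promoters of GRCm38.p6. For Slc7a11 (chr3:50443614-50443763, minus strand) the capitals mark ATF4 elements, for Srxn1 (chr2:152105374-152105523, plus strand) AP-1 motifs, and for Sod2 (chr17:13007685-13007834, plus strand) an NF-kB consensus.
Slc7a11: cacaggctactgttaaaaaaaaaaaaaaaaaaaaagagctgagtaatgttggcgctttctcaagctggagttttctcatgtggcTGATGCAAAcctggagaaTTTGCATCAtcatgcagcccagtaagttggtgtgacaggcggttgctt
Srxn1: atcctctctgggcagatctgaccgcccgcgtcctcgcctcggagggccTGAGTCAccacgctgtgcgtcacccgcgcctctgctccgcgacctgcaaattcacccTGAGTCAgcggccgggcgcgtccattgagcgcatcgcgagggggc
Sod2: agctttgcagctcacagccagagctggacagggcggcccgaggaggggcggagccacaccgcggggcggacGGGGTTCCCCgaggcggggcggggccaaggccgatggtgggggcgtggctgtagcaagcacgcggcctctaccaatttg
Motifs were sought on both strands of windows from 250 bases before to 50 bases after the start. RefSeq windows were matched for 8 of the 9 members, 10 windows in all. The ARE core searched was TGACNNNGC, found in 5 of the 8 members (Nfe2l2, Gclm, Srxn1, Prdx1 and 1 of the 3 Txnrd1 windows) and in 14% of 27025 genes. The Srxn1 match to this core began 29 bases after the start, outside the stretch printed. The core requires TGAC, so TGAGTCAGC, which begins 45 bases upstream of Srxn1 in that stretch, was not counted. Forms of the core with another base in place of that C were not searched. The AP-1 motif TGANTCA, held by 8.97% of genes, began 102 and 45 bases upstream of Srxn1. The ATF4 element TGATGNAAN, held by 4.5% of genes, began 66 and 48 bases upstream of Slc7a11 on opposite strands. The NF-kB consensus, held by 9.55% of genes, began 83 bases upstream of Sod2 and was matched on both strands there. Prdx1 held it too, on the minus strand of its window, from 170 bases upstream. In Prdx1 the ARE core 133 bases upstream overlapped an AP-1 motif that began 131 bases upstream. These matches are descriptions of the letters, not of binding.

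**Figure D1:**
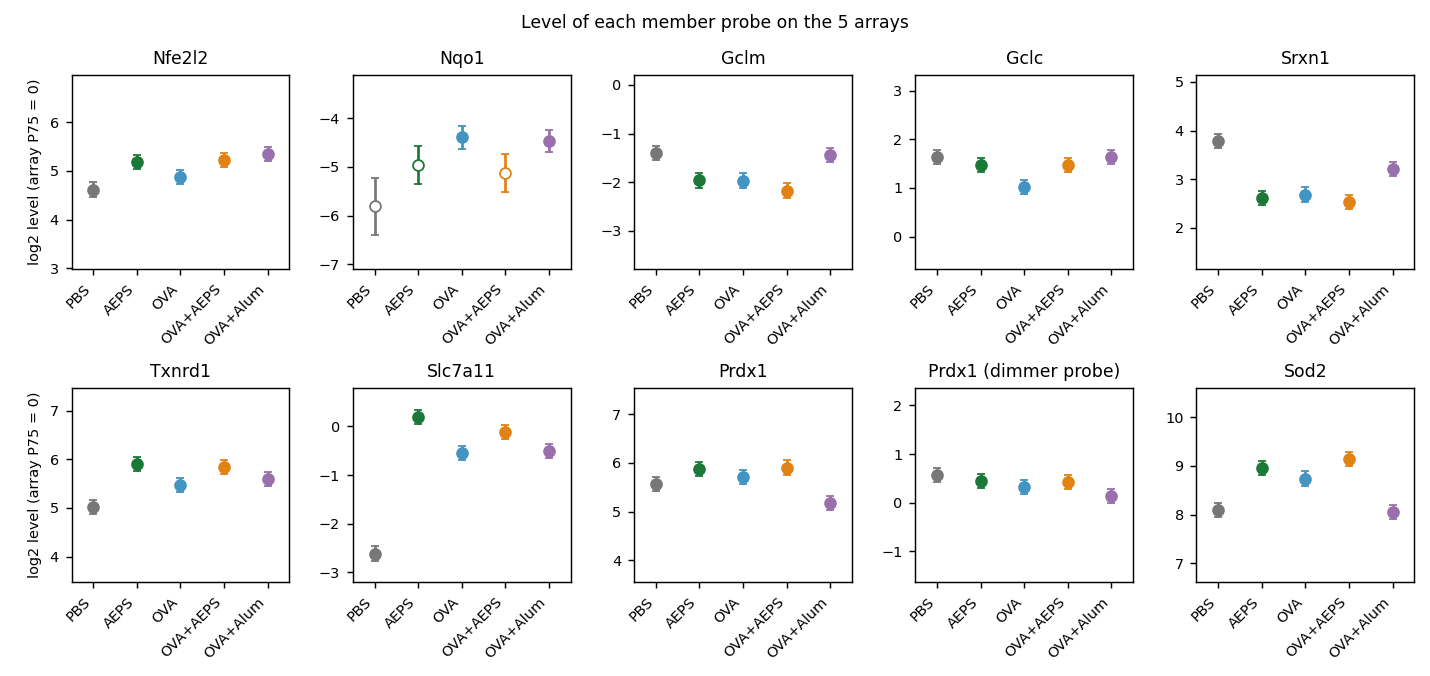
Level of each member probe on the 5 arrays (log2 of the processed signal relative to the array's 75th percentile), 1 panel per probe with the same height of axis, bars of the scanner's technical error, and open points where the probe was not well above background. Slc7a11 has the widest span, with PBS at -2.61 and the other arrays between -0.55 and 0.20, and Srxn1 runs the other way, with PBS at 3.78 on top.

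Slc7a11 encodes the transport subunit of system xc-, which imports cystine in exchange for glutamate and so feeds glutathione synthesis. It had the largest difference from PBS of any member in all 4 comparisons. Its processed signal was 54.8 after PBS, 475 after AEPS, 298 after OVA, 366 after OVA with AEPS and 298 after OVA with alum. In levels this was -2.61, 0.20, -0.55, -0.12 and -0.50 in the same order. PBS stood far below the 4 other arrays, which lay close together, and the step from PBS to the next array, OVA, was the only one between neighbours that exceeded 2 technical SEs. Relative to PBS the gene was 7.04-fold higher after AEPS (log2 difference 2.82, technical SE 0.21), 4.17-fold after OVA (2.06), 5.64-fold after OVA with AEPS (2.50) and 4.34-fold after OVA with alum (2.12). With normexp background correction the log2 differences were smaller, at 2.10, 1.48, 1.85 and 1.52. Between 1.33% and 1.55% of the genes compared had a larger difference than Slc7a11 in each of the 4 comparisons, which share the PBS array. All 4 arrays were at least 2-fold above PBS for Slc7a11, as for 1.52% of the 15571 genes. Slc3a2, the partner subunit that carries Slc7a11 to the membrane, differed from PBS by only -0.14, -0.15, -0.16 and 0.09.

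The 2 subunits of glutamate-cysteine ligase, which makes the first and rate-limiting step of glutathione synthesis, were not higher on any array than after PBS. Gclc, the catalytic subunit, had levels of 1.64 after PBS, 1.47 after AEPS, 1.02 after OVA, 1.46 after OVA with AEPS and 1.63 after OVA with alum. OVA alone was the low array, 1.54-fold below PBS (-0.62), and the gap from OVA to the next array exceeded 2 technical SEs. The other 3 differences from PBS were -0.17, -0.18 and -0.0045, and scaling to spike-in probes turned all 3 above 0, to as much as 0.50 for AEPS. Gclm, the modifier subunit, had levels of -1.40, -1.96, -1.97, -2.17 and -1.45 in the same order of arrays. PBS and OVA with alum were the higher pair, and the 3 arrays of AEPS, OVA and their combination a lower group. That order was found for 25% of the 15571 genes above background on at least 1 array. The differences from PBS were -0.56, -0.56, -0.77 and -0.05, of which the first turned to 0.11 and the last also turned above 0 with spike-in scaling. No Gclm or Gclc difference reached 2-fold.

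The thiol peroxide system gave differences in both directions. Srxn1 encodes sulfiredoxin, which restores peroxiredoxins that have been over-oxidized by peroxide. Its levels were 3.78 after PBS, 2.61 after AEPS, 2.69 after OVA, 2.52 after OVA with AEPS and 3.21 after OVA with alum. PBS was highest, OVA with alum lay between, and the other 3 arrays were low and within 2 technical SEs of their neighbours, while both upper gaps exceeded that. Relative to PBS it was 2.23-fold lower after AEPS (-1.16, technical SE 0.20), 2.13-fold lower after OVA (-1.09), 2.38-fold lower after OVA with AEPS (-1.25) and 1.48-fold lower after OVA with alum (-0.57). The direction was the same under all 5 other scalings tried. The size was under 2-fold with spike-in scaling, at -0.49, -0.80, -0.79 and -0.29, and just under it for OVA with scaling to the array median, at -0.97. In 1.75% of the 15571 genes AEPS, OVA and their combination were all at least 2-fold below PBS, and Srxn1 was the 1 member among them.

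Prdx1, the cytosolic peroxiredoxin that Srxn1 acts on, was measured by 2 probes that did not give the same order. The brighter probe had levels of 5.56, 5.87, 5.71, 5.90 and 5.18 for PBS, AEPS, OVA, OVA with AEPS and OVA with alum. The dimmer probe had 0.58, 0.44, 0.32, 0.43 and 0.15 on the same arrays. Both were lowest after OVA with alum, and they disagreed on the other 3 arrays, which lay above PBS with the brighter probe (0.31, 0.15 and 0.35) and below it with the dimmer one (-0.13, -0.25 and -0.15). Those 3 differences of the dimmer probe turned above 0 with spike-in scaling. No gap between neighbouring arrays exceeded 2 technical SEs for either probe, and no difference from PBS reached 2-fold. Between OVA with AEPS and OVA with alum the brighter probe differed by 3.56 technical SEs and the dimmer one by 1.36.

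Txnrd1, the cytosolic thioredoxin reductase that uses NADPH to keep thioredoxin reduced, had levels of 5.02, 5.91, 5.48, 5.84 and 5.60 on the same 5 arrays. PBS was lowest, and its gap to OVA exceeded 2 technical SEs. The differences from PBS were 0.88 after AEPS, 0.45 after OVA, 0.81 after OVA with AEPS and 0.57 after OVA with alum, at most 1.85-fold. All 4 stayed above 0 under the 5 other scalings, and with spike-in probes AEPS and OVA with AEPS passed 2-fold. Txn1, the thioredoxin that this enzyme reduces, was also above PBS on the 4 arrays, by 0.81, 0.93, 0.77 and 0.31, none at 2-fold.

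Sod2, the manganese superoxide dismutase of mitochondria, which is also a known NF-kB target, had processed signals of 92256 after PBS, 204890 after AEPS, 187020 after OVA, 225350 after OVA with AEPS and 112360 after OVA with alum, and no spot was saturated. The levels were 8.10, 8.95, 8.74, 9.15 and 8.06. PBS and OVA with alum were low and close to each other, and the other 3 arrays were higher, with a gap from PBS up to OVA beyond 2 technical SEs. Relative to PBS the gene was 1.80-fold higher after AEPS (0.85), 1.56-fold after OVA (0.64) and 2.06-fold after OVA with AEPS (1.04). After OVA with alum the difference was -0.04, which turned above 0 with 4 of the 5 other scalings and ranged from -0.01 to 0.24 over them.

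Nfe2l2 itself had levels of 4.62 after PBS, 5.19 after AEPS, 4.87 after OVA, 5.22 after OVA with AEPS and 5.34 after OVA with alum. PBS was lowest and OVA next, but no gap between neighbours exceeded 2 technical SEs. After AEPS, OVA, OVA with AEPS and OVA with alum, Nfe2l2 stood 2.79, 1.24, 2.97 and 3.55 technical SEs above PBS. The differences from PBS were 0.57, 0.25, 0.61 and 0.73, at most 1.65-fold, and each was above 0 under all scalings. With spike-in probes, AEPS (1.24), OVA with AEPS (1.07) and, narrowly, OVA with alum reached 2-fold. Nqo1, the quinone reductase often used to read NRF2 activity, was near the limit of detection. Its signals were 5.98, 13.2, 20.8, 11.5 and 19.0, and those of PBS, AEPS and OVA with AEPS were not well above background. It was at least 1.68-fold higher after OVA and at least 1.60-fold higher after OVA with alum than after PBS, from measured differences of 1.42 and 1.34. With normexp correction those differences were 0.34 and 0.29. For the other comparisons with PBS no fold is given, since both signals were at background.

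**Figure D2:**
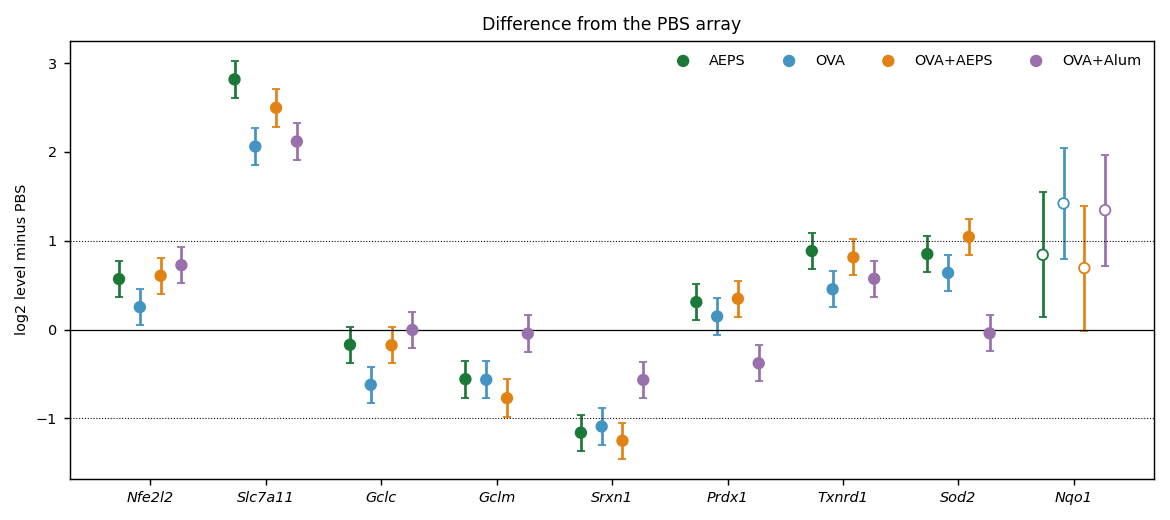
Log2 difference of each member from the PBS array for the 4 other injections, with bars of 1 technical SE and open points where the probe was not well above background on both arrays. Slc7a11 lies between 2.06 and 2.82, Srxn1 between -1.25 and -0.57, and most other points lie within 1 of 0.

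In the comparisons with PBS, 2 or 3 of the 9 members reached 2-fold. After AEPS, 1 of 9 members was higher (Slc7a11) and 1 lower (Srxn1), where 8.7% of the 14938 genes compared were higher and 6.9% lower. After OVA, 2 were higher (Slc7a11 and Nqo1) and 1 lower (Srxn1), against 6.67% and 4.08% of genes. After OVA with AEPS, 2 were higher (Slc7a11 and Sod2) and 1 lower (Srxn1), against 8.29% and 6.19%. After OVA with alum, 2 were higher (Slc7a11 and Nqo1) and none lower, against 6.46% and 5.15%. Nqo1 passes in these counts only through the array where it was high, and its bounds of at least 1.68-fold and at least 1.60-fold do not reach 2-fold, so without it 1 member, Slc7a11, was higher in each of both comparisons. With 9 genes, 1 member more or less moves the share by more than these percentages. Nqo1 failed the background requirement after AEPS and after OVA with AEPS, so 8 members entered those comparisons and 9 the others.

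The median member difference from PBS was 0.44 after AEPS, 0.25 after OVA, 0.48 after OVA with AEPS and -0.0045 after OVA with alum, beside all-gene medians of -0.17, -0.14, -0.15 and -0.06. Spike-in scaling raised every gene by 0.67, 0.29, 0.46 and 0.28 in these comparisons, and scaling to the array median by up to 0.13. A difference relative to the all-gene median is free of that constant. On this basis Slc7a11 was higher by 2.98, 2.20, 2.65 and 2.18, Txnrd1 by 1.05, 0.60, 0.97 and 0.64, and Nfe2l2 by 0.74, 0.39, 0.76 and 0.79. Sod2 was higher by 1.02, 0.78, 1.20 and 0.02. Srxn1 was at -0.99, -0.95, -1.10 and -0.50, Gclm at -0.39, -0.42, -0.62 and 0.02, and Gclc at -0.0048, -0.48, -0.02 and 0.06. Of all genes counted as changed, 55.8%, 62.0%, 57.2% and 55.7% were higher in the 4 comparisons, which became 91.9%, 83.0%, 87.2% and 77.9% with spike-in scaling, 68.8%, 80.1%, 68.3% and 67.1% with normexp correction, and 72.6% and 67.2% with median scaling for OVA and for OVA with alum.

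**Figure D3:**
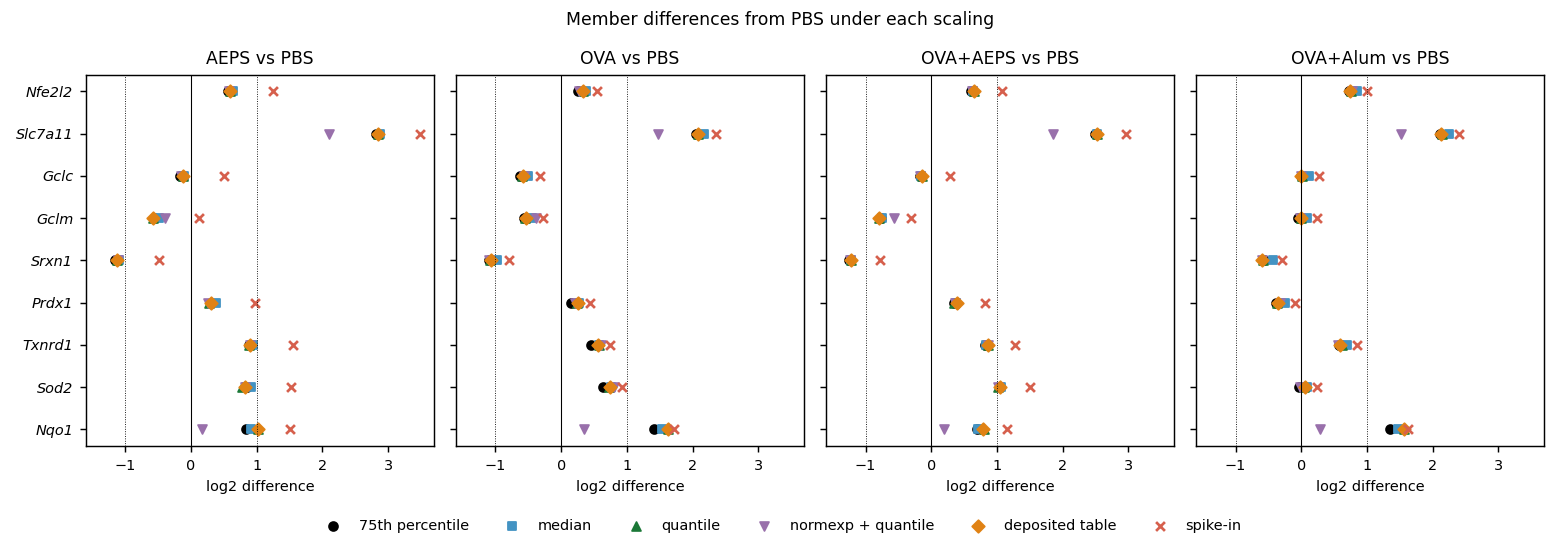
Log2 difference of each member from PBS under the main scaling and 5 others, 1 panel per injection. The spike-in points lie above the main ones by a constant in each panel (0.67 for AEPS), and the normexp points of Slc7a11 lie lower than its main ones.

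Both adjuvants were also set against OVA alone. Between OVA with AEPS and OVA no member reached 2-fold, where 4.08% of genes were higher and 3.64% lower, 7.72% in all. The largest differences where both arrays were above background were Slc7a11 (0.44), Gclc (0.44), Sod2 (0.41), Txnrd1 (0.36) and Nfe2l2 (0.35), each above 0 under all scalings tried. Of these, Slc7a11 and Gclc exceeded 2 technical SEs, while Sod2, Txnrd1 and Nfe2l2 did not (1.99, 1.76 and 1.73). Between OVA with alum and OVA again no member reached 2-fold, against 4.15% of genes higher and 5.44% lower, 9.59% in all. There Gclc (0.62), Srxn1 (0.52), Gclm (0.52) and Nfe2l2 (0.47) were higher, Sod2 (-0.68) and Prdx1 (-0.53) lower, and Slc7a11 was nearly level (0.06). The direct comparison of both adjuvants, OVA with AEPS against OVA with alum, had 1 member at 2-fold, Sod2 at 2.12-fold higher (1.08, technical SE 0.20), against 6.76% higher and 6.44% lower of all genes. Sod2 was just under 2-fold there with scaling to the array median (0.98). Prdx1 was 1.65-fold higher with AEPS by its brighter probe (0.73) and 1.21-fold by its dimmer one, while Gclm (-0.73) and Srxn1 (-0.68) were lower with AEPS than with alum.

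Differences between the 2 injections that held AEPS were below 2-fold for every member compared. Between OVA with AEPS and AEPS the differences lay between -0.32 (Slc7a11) and 0.19 (Sod2), and none reached 2-fold, against 2.06% of genes higher and 1.88% lower, 3.94% in all. Between AEPS and OVA none reached 2-fold either, against 4.25% and 3.24%, or 7.49% in all, and the widest measured on both arrays was Slc7a11 at 0.76, which became 1.13 with spike-in scaling. The AEPS difference was 2.82 without OVA and 0.44 with OVA for Slc7a11, and -1.16 and -0.16 for Srxn1. It was 0.88 and 0.36 for Txnrd1, 0.85 and 0.41 for Sod2, and -0.17 and 0.44 for Gclc. Over the 15571 genes above background on at least 1 array, the median change (with OVA minus without) was 0.14. The difference without OVA compares slide row 2 with PBS in row 1, while the difference with OVA lies within row 2. Slide row and the presence of OVA can therefore not be told apart here. With 1 array per injection the change between these differences was not tested.

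Among the 11 other regulators and partners of NRF2, 3 were at least 2-fold higher than PBS after AEPS, 0 after OVA, 3 after OVA with AEPS and 2 after OVA with alum, and none was lower. Bach1, a repressor that competes with NRF2 for its sites, differed by 1.27, 0.48, 1.36 and 1.11. The small MAF proteins Maff (1.11, -0.12, 1.03 and 1.19) and Mafk (1.06, 0.14, 1.15 and 0.61) made up the rest. Keap1 differed by 0.10, -0.26, 0.20 and -0.29. The list medians were 0.10, -0.12, 0.13 and 0.17.

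Of 27 further NRF2 targets, at most 1 was higher and 1 lower than PBS in any of the 4 comparisons, and the medians (-0.19, -0.12, -0.06 and 0.06) lay close to those of all genes. Hmox1, the inducible heme oxygenase, had levels of 3.46, 3.65, 3.36, 3.81 and 4.85 on PBS, AEPS, OVA, OVA with AEPS and OVA with alum. It was high on the alum array alone, by 1.39 over PBS. Osgin1, an oxidative stress response gene, had levels of 1.30, -0.12, 1.57, -0.49 and 1.96, with both AEPS arrays low. Its differences from PBS were -1.43, 0.26, -1.80 and 0.66.

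The other glutathione and cystine genes gave 0, 1, 0 and 3 of 10 higher and 1, 0, 0 and 1 lower, in the order AEPS, OVA, OVA with AEPS and OVA with alum. Ggt5, a gamma-glutamyltransferase of leukotriene and glutathione metabolism, accounted for the OVA gene and 1 of the alum genes (0.93, 1.70, 0.39 and 2.93). The glutaredoxin Glrx (1.02) and Ggt1, which was not well above background after PBS, were the other alum genes, and the secreted peroxidase Gpx3 was lower there (-1.17). Chac1, which degrades glutathione, was lower on the AEPS array (-1.18) and, just under 2-fold, on the array of OVA with AEPS (-0.99). Of 13 thioredoxins, peroxiredoxins and sestrins, 1 was higher after OVA with AEPS (Txnrd3, 1.01) and 1 after OVA with alum (Sesn2, 1.23). Of the other 4 superoxide dismutase and catalase genes, the extracellular Sod3 was higher after OVA with alum (1.15). Of 9 NADPH oxidase genes, Nox4 alone passed 2-fold in any of the 4, lower after AEPS from a signal near background. Cybb, the catalytic subunit of the phagocyte enzyme, differed by 0.51, 0.36, 0.39 and -0.71.

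Because NF-kB is known to act on Sod2 and ATF4 on Slc7a11, genes of both responses are given beside them. NF-kB responsive genes were higher than PBS for 11, 2, 13 and 2 of 18 genes in the same order, with 1 lower after OVA with alum, and medians of 1.21, 0.61, 1.15 and 0.47. Tnfaip3, an inhibitor in that pathway, differed by 2.41, 1.32, 2.58 and 1.42, and Il6 by 1.48, -0.09, 1.29 and -2.07. Of 17 ATF4 response genes, 1, 0, 2 and 2 were higher and 2, 0, 1 and 0 lower, with medians of 0.03, 0.13, 0.03 and 0.55. Ddit4, a stress-induced inhibitor of mTORC1, differed by 1.31, 0.50, 1.91 and 1.30, and Asns, asparagine synthetase, by 0.73, 0.19, 0.67 and 0.58. Phgdh and Psat1 of the same list were highest after PBS. On PBS, AEPS, OVA, OVA with AEPS and OVA with alum, Phgdh had levels of 3.64, 3.44, 2.80, 3.17 and 3.10. Psat1 had levels of 2.29, 1.98, 1.67, 1.85 and 1.55 on the same arrays. Vegfa differed by -1.30, -0.81, -1.45 and 0.38 and Atf4 itself by 0.01, 0.13, 0.22 and 0.10. None of 10 housekeeping genes reached 2-fold in any of the 9 comparisons.

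**Figure D4:**
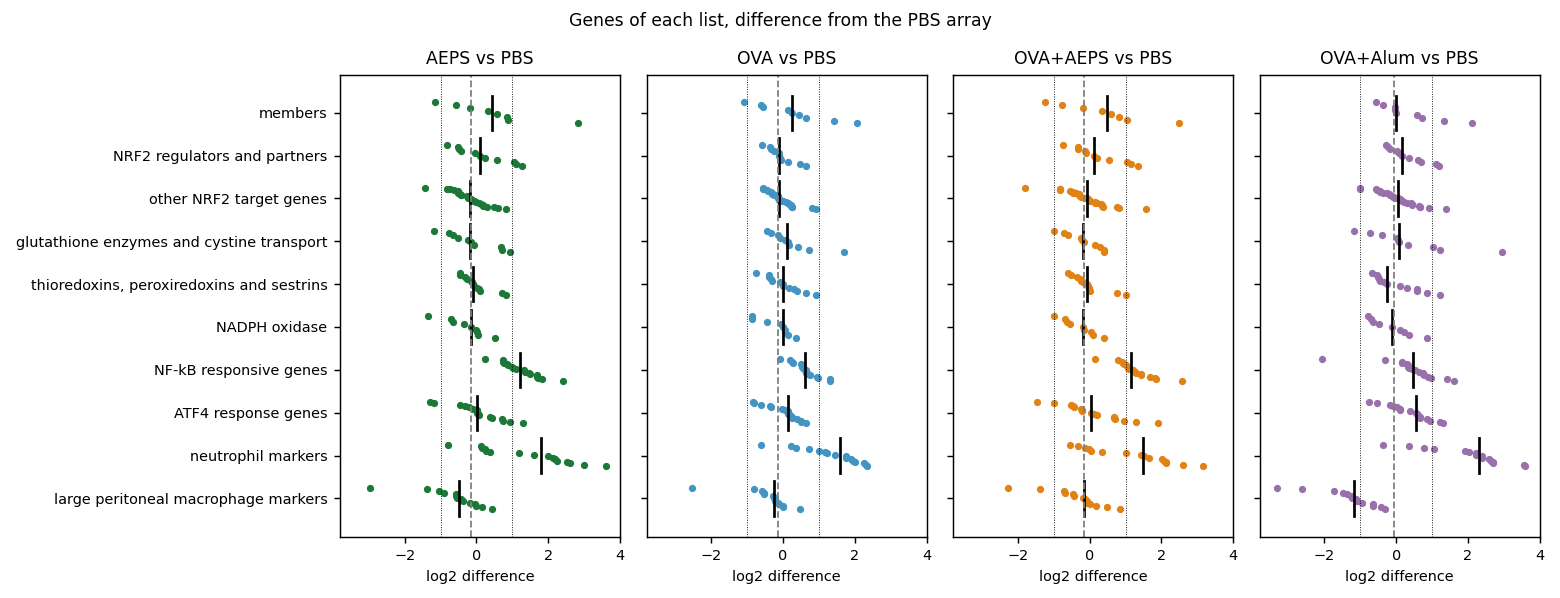
Log2 differences from PBS of the genes in each list, 1 panel per injection, with a bar at the list median. After AEPS the NF-kB and neutrophil lists have medians of 1.21 and 1.79, and the other NRF2 target genes one of -0.19.

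Markers of the cell types that a lavage can hold also differed between arrays. Of 16 neutrophil markers, 10, 12, 10 and 13 exceeded PBS by 2-fold or more after AEPS, OVA, OVA with AEPS and OVA with alum, and none was lower to that extent. Their summed level, in multiples of the 75th percentile, was 1294 after PBS and 2512, 2092, 2226 and 2532 after the other injections. PBS had the least summed neutrophil signal, and also the least for mast cell, mesothelial and stromal, T cell and NK cell, and eosinophil markers. A summed level can follow its brightest markers. Median differences from PBS were -0.01, 0.07, -0.50 and 0.14 for T cell and NK cell markers, in the order of injections above. After OVA with AEPS, Gzma alone of these lay above PBS (0.64). Eosinophil medians were -0.09, 0.55, -0.01 and 0.25. After OVA with alum, the mast cell marker Hdc differed by 1.79, while the median of its list was 0.23. Of the members above background throughout, PBS was lowest for Slc7a11, Txnrd1 and Nfe2l2 and highest for Gclm, Gclc and Srxn1. Large peritoneal macrophage markers were lower than PBS for 3, 1, 2 and 9 of 14 genes, and their summed level was 2801, 2504, 2461, 2678 and 1757. The alum array was lowest in the summed level of these markers. It was also lowest for both Prdx1 probes and highest for Nfe2l2, but by gaps to the next array within 2 technical SEs. With spike-in scaling Nfe2l2 was highest after AEPS instead. For Sod2 the alum array did not differ from PBS beyond the technical SE. Mesothelial and stromal markers were higher than PBS for 3, 0, 3 and 8 of 10 genes, with summed levels of 10.3, 22.3, 14.2, 20.7 and 30.5. Mast cell markers were higher for 4, 4, 4 and 1 of 8 genes, with summed levels of 330, 614, 499, 534 and 534. The summed levels of inflammatory monocyte markers were 1231, 1460, 1305, 1579 and 1183, those of B cell markers 739, 509, 567, 461 and 542, those of T cell and NK cell markers 185, 279, 239, 204 and 228, and those of eosinophil markers 11.3, 13.2, 19.4, 14.1 and 14.5. Among all markers, Epx was not well above background on any array and Ms4a2 was not on the PBS array. The part of these cell types in the differences of the members was not tested.

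The genes whose levels followed a member most closely over the 5 arrays were found among 13677 genes above background throughout, by the root mean square difference of levels centred on their mean. For Slc7a11 they were Osmr, a cytokine receptor subunit (0.17), Htra4 (0.17) and Trim30b (0.20). For Srxn1 they were Mef2b (0.07), Pold1, a DNA polymerase subunit (0.07), and Mfsd11 (0.08). For Sod2 they were Brix1, a ribosome assembly factor (0.04), Alpk1 (0.06) and Nifk (0.06). Osmr, for instance, had levels of -2.59, 0.07, -0.61, 0.18 and -0.70 on PBS, AEPS, OVA, OVA with AEPS and OVA with alum, with PBS far below the rest as for Slc7a11. These are likenesses over 5 arrays that share a slide.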

How the data were processed

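Total RNA of peritoneal cells was labelled with Cy3 and hybridised to 1 Agilent array per injection, per the labels. Intensity values in the deposited scanner files are linear and were made by the authors with Agilent Feature Extraction 10.7.1.1, which per the file headers subtracted background, detrended the signal and set surrogates near background. Flags per spot are other values of 0 or 1 in the deposited files. The deposited series table holds log2 values with equal quartiles in every array, as after quantile normalization. Its scale was found from the values, which correlated at 0.9998 or above with log2 processed signal, and every column had a median of 4.67. What was centred is not given in the sources used here.

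Each array had 62976 spots. The 3671 control spots and 134 to 219 outlier spots were left out, and spots of a probe were averaged. Levels are log2 processed signal minus the array's 75th percentile. Of 55681 probes, 26582 matched a gene by RefSeq accession (GRCm38.p6). The brightest probe stood for a gene, and both Prdx1 probes are given. The array files name no build, so no probe coordinates are given. A bound uses the larger of the dim probe's signal and the lowest signal well above background on that array. Precision is limited by the number of arrays.

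The members and lists were chosen with earlier results of these data known. Named genes were all members, per comparison up to 4 genes of each list that differed most in either direction, and, for members spanning at least 2-fold, the 3 most similar genes. Nqo1 was left out of that last step, being below background on 3 arrays. Keap1, Slc3a2, Atf4 and Asns were outside this rule and are given for their role, with their values known. Genes of the lists without a matched probe (Polr2a, Ly6g, Ly6c2, Ighm, Trac and Tpsab1) were not analysed here. Alternatives were other scalings (array median, quantile, normexp from limma 3.58.1 with an offset of 50 and quantile, spike-in probes, the deposited table), other filters, the median over probes and a 1.5-fold threshold. The 2-fold cut alone was also run on simulated data, with differences set above the cut and the scanner's error as the only noise. That run does not test the scaling, the filters or the spread between arrays.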

Additional observations from a re-analysis of the deposited data

How the results depend on the processing

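No paired analysis was possible because each group has 1 array. Member counts (of 9) moved as follows. OVA against PBS went from 3 to 2 with normexp and where both arrays had to be above background, both without Nqo1, and to 2 with median and with spike-in scaling, both without Srxn1. OVA with AEPS against OVA with alum went from 1 to 0 with median scaling, quantile scaling and the deposited table. OVA with alum against PBS went from 2 to 1 with normexp, which lowered the Nqo1 difference, and to 1 where both arrays had to be above background, which removes Nqo1. Spike-in scaling gave 4 for AEPS against PBS (from 2), 4 for OVA with AEPS against PBS (from 3), 3 for OVA with alum against PBS (from 2) and 1 for AEPS against OVA (from 0). A 1.5-fold threshold gave 4, 5, 6 and 3 for AEPS, OVA, OVA with AEPS and OVA with alum against PBS. It gave 1 and 2 for OVA with AEPS and OVA with alum against OVA. For OVA with AEPS against OVA with alum it gave 5, and for AEPS against OVA 1. The count of all genes at 2-fold was 579 to 2329 over the 9 comparisons, 184 to 1124 with normexp, 625 to 3647 with spike-in probes, 1124 to 2948 with no filter on dim probes, 201 to 1710 with both arrays above background, and 1230 to 5164 at 1.5-fold. Of 78 member differences, 8 moved beyond 1 technical SE with normexp, 47 with spike-in probes, 3 with the median over probes (all Prdx1) and none with median, quantile, deposited or unfiltered values. Apart from the threshold and the filter on both arrays, the cause was not tested. Outside the comparisons with PBS, the share of higher calls moved by over 10 percentage points with spike-in probes for AEPS against OVA (56.7% to 80.2%), OVA with AEPS against OVA (52.9% to 67.7%), against OVA with alum (51.2% to 67.5%) and against AEPS (52.3% to 39.8%), with normexp for OVA with alum against OVA (43.3% to 30.5%), and in no other scaling by as much. With 1 array per group, signal over background limits Nqo1 alone among the members.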
